A study of Mus musculus with 11 samples.

Results

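The genes described here encode the integrin subunits by which leukocytes adhere to vessels, matrix and epithelium. They are the β chains *Itgb2*, *Itgb7* and *Itgb1* and the α chains *Itgam*, *Itgax*, *Itgal*, *Itgad*, *Itga4*, *Itga5* and *Itgae*. They were chosen by gene symbol, which picked 10 of the 45777 genes in the count table. Their mRNA was followed in the skin and small intestine of BALB/c mice, aged 8 to 10 weeks at the start, that were given cream on the skin daily. The IMQ-treated mice received 62.5 mg per day of Aldara cream with 5% imiquimod (IMQ), an agonist of TLR7 used to model psoriasis in mice, and the control mice received the same amount of Vaseline. The sample annotation places the cream on the back and the right ear for 5 to 8 days, whereas the methods name the shaved back alone and a range that ends earlier, so the exact exposure of each mouse is not given in the sources used here. There were 3 control (replicates 1 to 3) and 3 IMQ (replicates 4 to 6) libraries of the skin and 3 control (replicates 7 to 9) and 2 IMQ (replicates 10 and 11) libraries of the small intestine. Both sexes were used in the study, and the sex of each mouse is not given. The annotation does not state that libraries of one group came from separate mice, so the p values measure the spread between these samples.

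Every integrin is a pair of an α and a β chain, and neither chain reaches the cell surface in quantity without the other. *Itgb2* encodes CD18, the β2 chain, which is restricted to leukocytes and pairs with CD11a (*Itgal*), CD11b (*Itgam*), CD11c (*Itgax*) or CD11d (*Itgad*). CD11a/CD18 is carried by nearly all leukocytes and binds ICAM proteins, CD11b/CD18 binds complement fragments and fibrinogen and is abundant on neutrophils, monocytes and macrophages, and CD11c is best known from dendritic cells and many tissue macrophages. The α4 chain (*Itga4*) pairs with β1 (*Itgb1*) to bind VCAM1 or with β7 (*Itgb7*) to bind MAdCAM1, the address molecule of intestinal vessels. The αE chain (*Itgae*, CD103) pairs with β7 and binds E-cadherin on epithelium, where it marks intraepithelial T cells and subsets of dendritic cells. The α5 chain (*Itga5*) with β1 is the main fibronectin receptor, and β1 is made by nearly every cell type, including keratinocytes, fibroblasts and enterocytes.

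The 4 partners of *Itgb2* lie on one chromosome, and 3 of them are direct neighbors. In GRCm38 (mm10), *Itgam* lies on the plus strand at chr7:128062640-128118491, *Itgax* follows 11034 bases further at chr7:128129526-128150657, and *Itgad* follows after another 23275 bases at chr7:128173933-128205504. *Itgal* lies 727502 bases upstream of *Itgam*, at chr7:127296139-127335137. *Itgb2* is at chr10:77530329-77565708, *Itga4* at chr2:79255426-79333114, *Itgae* at chr11:73090505-73147449 and *Itgb1* at chr8:128685654-128733579, all on the plus strand. Both *Itga5* (chr15:103344286-103366791) and *Itgb7* (chr15:102215994-102233405) are on the minus strand. The bases just before *Itgam* and *Itgax*, from RefSeq on the plus strand of GRCm38.p6, are shown because *Itgam* rose in both tissues whereas *Itgax* responded differently in each of them. Capitals mark GAGGAA and its reverse complement TTCCTC, a form of the core sequence bound by PU.1, the myeloid factor encoded by *Spi1*.
Itgam, chr7:128062390-128062639: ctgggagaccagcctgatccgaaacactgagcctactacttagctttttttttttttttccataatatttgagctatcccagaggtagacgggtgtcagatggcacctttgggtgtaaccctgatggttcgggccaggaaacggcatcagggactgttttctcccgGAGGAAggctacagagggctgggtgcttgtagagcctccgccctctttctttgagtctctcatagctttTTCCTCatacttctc
Itgax, chr7:128129300-128129525: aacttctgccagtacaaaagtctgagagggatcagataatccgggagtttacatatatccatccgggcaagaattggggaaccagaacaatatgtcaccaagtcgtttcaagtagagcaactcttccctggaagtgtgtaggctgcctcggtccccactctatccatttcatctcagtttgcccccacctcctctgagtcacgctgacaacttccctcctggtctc
The 250 bases before *Itgam* held the sequence at 2 places, 1 on each strand, which do not overlap. It was present once before *Itgb1* and once before *Itga5* and was not found in the windows of *Itgax*, *Itga4* and *Itgb7*. The window of *Itgb7* lies inside the annotated gene, and that of *Itgax* ends inside its gene, so 226 of its 250 bases are printed. Of 32851 mouse promoters of this length, 23.3% held at least 1 copy on either strand. The share with 2 or more copies was not computed. A match describes the letters only, binding was not measured, and a link between the sequence and the response to IMQ was not tested.

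The libraries held 44995414 to 58526384 counts each. The tissues matched their labels, since 6 skin epithelial markers summed to 4721 to 13108 FPKM in the skin and 0.469 to 1.39 FPKM in the small intestine. The 6 markers of small intestinal epithelium summed to 4646 to 8968 FPKM in the small intestine. Control replicate 2 of the skin stood apart, with 109 FPKM of these intestinal markers against 0.0744 to 2.98 FPKM in the other skin libraries. It was also the highest control for *Itgb2*, *Itgax*, *Itgal*, *Itgad*, *Itga4*, *Itgae* and *Itgb7*, so the calls of the 10 genes and the counts of list genes that rest on the control skin are also given without it, while shares and ratios are printed for every library. The part of that material in the integrin values was not tested. All 10 genes had at least 17 counts in every library and passed the filter on low counts in each comparison.

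Per transcript length, *Itgb1* was the most abundant of the integrin mRNAs in the control tissues and *Itgad* the least. Levels between genes are compared as FPKM, which are scaled by transcript length and sequencing depth, and changes of one gene as normalized counts. *Itgb1* had 72.6 ± 10.3 FPKM in control skin (SD, n = 3) and 63.9 ± 4.76 FPKM in control small intestine (n = 3), above every other subunit in every control library. The next 6 in control skin, *Itgb2* (9.81 FPKM), *Itga5* (8.51 FPKM), *Itgae* (6.15 FPKM), *Itgam* (5.94 FPKM), *Itgb7* (5.28 FPKM) and *Itgax* (4.43 FPKM), had ranges that each overlapped the next. *Itgal* (2.06 FPKM) and *Itga4* (1.63 FPKM) followed and also overlapped each other. In control small intestine the order was *Itgax* (7.51 FPKM), *Itgb2* (7.37 FPKM), *Itgb7* (6.61 FPKM), *Itgae* (6.60 FPKM) and *Itgam* (5.64 FPKM), again with overlapping neighbors. A lower group held *Itga5* (3.35 FPKM), *Itga4* (3.09 FPKM) and *Itgal* (3.08 FPKM), whose ranges overlapped. *Itgad* was last in both, at 0.110 ± 0.0556 FPKM in skin and 0.300 ± 0.0593 FPKM in small intestine, without overlap with the gene above it.

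The order was another one after IMQ in each tissue. *Itgam* held the second place in the treated skin with 44.1 ± 1.87 FPKM (n = 3), above *Itgb2* with 34.5 ± 4.10 FPKM and without overlap, and *Itgb1* remained first with 75.6 ± 5.67 FPKM. In the treated small intestine *Itgb2* was first, at 82.2 and 72.2 FPKM, above both values of *Itgb1*, 68.1 and 52.7 FPKM. *Itgax* was the leading α chain there, at 59.2 and 44.2 FPKM, and overlapped *Itgb1*. *Itgad* stood above *Itgal*, with 12.2 and 8.55 FPKM against 7.17 and 7.14 FPKM. The last places were taken by *Itgae* and *Itga4*, which overlapped each other.

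**Figure D1:**
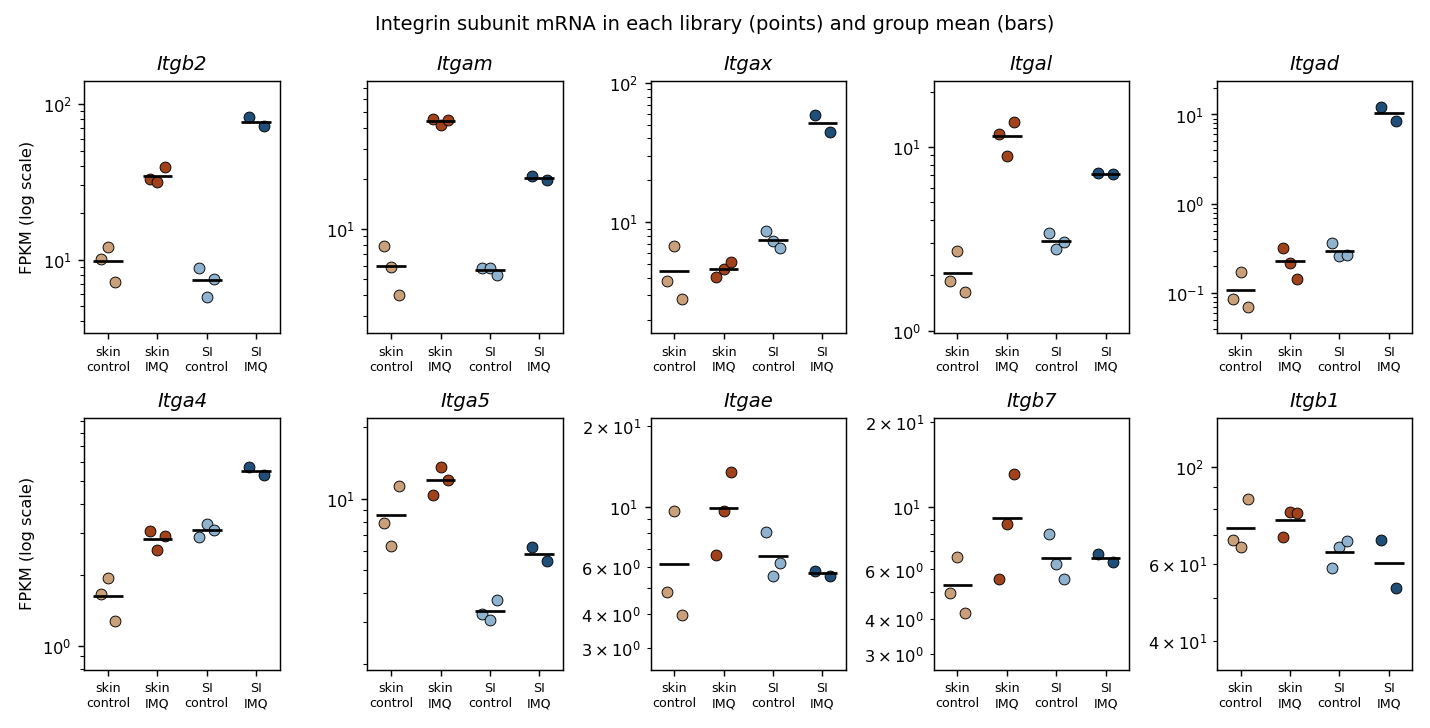
Level of each integrin mRNA in each library, in FPKM on a log axis that differs between panels, for control and IMQ-treated skin and small intestine (SI). Points are libraries and bars are group means, and the 2 treated small intestines sit far above their controls for *Itgb2*, *Itgax* and *Itgad*. Between the skin groups *Itgax* overlaps, through control replicate 2 alone.

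The vehicle-treated tissues were compared first. In one edgeR model of the 11 libraries, 6 of the 10 genes differed between control small intestine and control skin, 5 higher and 1 lower in the small intestine. Of all 18108 genes tested, 57% were called in this comparison, 28.2% higher and 28.8% lower, so the share among the integrins was near that of the table. Higher in the small intestine were *Itga4* by 1.36 ± 0.18 on the log2 scale (SE, edgeR adjusted p = 5.5e-05), *Itgad* by 1.89 ± 0.40 (edgeR adjusted p = 0.00194), *Itgal* by 1.02 ± 0.23 (edgeR adjusted p = 0.00322), *Itgax* by 1.18 ± 0.30 (edgeR adjusted p = 0.00535) and *Itgb7* by 0.75 ± 0.29 (edgeR adjusted p = 0.0464). Here and below, edgeR adjusted p is the p value of edgeR's quasi-likelihood test, adjusted by Benjamini-Hochberg across every gene of the comparison. *Itga5*, the fibronectin receptor chain, was lower there by a log2 difference of -0.87 ± 0.18 (edgeR adjusted p = 0.00164). The log2 differences of *Itgb2* (0.03 ± 0.23), *Itgam* (0.37 ± 0.20), *Itgae* (0.52 ± 0.35) and *Itgb1* (0.27 ± 0.13) did not pass. Without control replicate 2 of the skin 7 genes were called, since *Itgae* then differed by 1.08 ± 0.27 (edgeR adjusted p = 0.00534). That fit called 57.3% of all genes. *Itgb7* was called in 3 of the 11 fits that left out 1 library. The scale between tissues was uncertain, since the median log2 difference of all genes was -0.01 in counts and -0.45 in FPKM, where 3196 genes were called higher and 8330 lower against 5111 and 5210. On the FPKM scale *Itgb2*, *Itgam* and *Itgb1* changed sign, to -0.40, -0.02 and -0.18, each of which was above that median.

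In the skin, 3 of the 10 genes were higher after IMQ, the shared β2 chain *Itgb2* and its partners *Itgam* and *Itgal*, and none was lower. Of the 20512 genes tested, 6.74% were called and 4.05% were called higher. *Itgb2* had 1521, 1951 and 1076 normalized counts in the controls and 5418, 5019 and 6074 after IMQ. Every treated skin lay above every control. The change was 3.63-fold, or 1.86 ± 0.22 on the log2 scale (edgeR adjusted p = 0.00736). *Itgam*, the chain of neutrophils and monocytes, had 1934, 1554 and 968 normalized counts in the controls and 12172, 10817 and 11241 after IMQ. The groups were far apart, and the treated libraries varied less, relative to their mean, than the controls. *Itgam* rose 7.68-fold, by 2.94 ± 0.26 (edgeR adjusted p = 0.00321). *Itgal*, the chain of nearly all leukocytes, went from 508, 790 and 437 normalized counts to 3489, 2559 and 3811, again without overlap. Its rise was 5.69-fold, or 2.51 ± 0.27 (edgeR adjusted p = 0.00513). These 3 calls held in each of the 6 fits without 1 library and in the 7 other models and filters.

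The other partners of *Itgb2* did not pass in the skin. *Itgax* had 795, 1495 and 578 normalized counts in the controls and 916, 1017 and 1102 after IMQ. The treated values lay inside the range of the controls, of which replicate 2 was the highest. The log2 fold change was 0.08 ± 0.33 (edgeR adjusted p = 0.917), and 0.56 ± 0.18 (edgeR adjusted p = 0.103) without replicate 2. *Itgad* had few counts in the skin, with 18.1, 39.3 and 14.8 normalized counts in the controls and 73.2, 48.3 and 30.8 after IMQ, and its groups overlapped. Its log2 fold change was 1.09 ± 0.48 (edgeR adjusted p = 0.233), and 1.62 ± 0.44 (edgeR adjusted p = 0.0713) without replicate 2.

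Among the subunits of lymphocyte homing and matrix adhesion, 0 of 5 were called in the skin by edgeR, 3 had an unadjusted p under 0.05, and DESeq2 called 1, *Itga4*. *Itga4* had 851, 1073 and 649 normalized counts in the controls and 1721, 1372 and 1544 after IMQ. The groups did not overlap, but the log2 fold change of 0.85 ± 0.20 missed the threshold (edgeR adjusted p = 0.0544). *Itga5* had 1824, 1571 and 2570 normalized counts in the controls and 2606, 3304 and 2821 after IMQ, also without overlap, with a log2 fold change of 0.55 ± 0.20 (edgeR adjusted p = 0.162). For 5 of the 10 genes every treated skin lay above every control, against 15.1% of all genes tested. *Itgae* had 997, 2121 and 801 normalized counts in the controls and 1483, 2077 and 2805 after IMQ. Its partner *Itgb7* had 689, 1002 and 581 normalized counts against 847, 1276 and 1862. In both, control replicate 2 was above treated replicate 4, so the groups overlapped, and their log2 fold changes were 0.70 ± 0.40 (edgeR adjusted p = 0.35) and 0.81 ± 0.32 (edgeR adjusted p = 0.194). *Itgb1* had 14910, 15413 and 18289 normalized counts in the controls and 16545, 18237 and 17650.2 after IMQ, with overlap and a log2 fold change of 0.11 ± 0.13 (edgeR adjusted p = 0.679). Without control replicate 2, 5 genes were called in the skin, since *Itga4* (1.04 ± 0.17, edgeR adjusted p = 0.0182) and *Itgae* (1.24 ± 0.28, edgeR adjusted p = 0.0447) then passed, and *Itgb7* was at 1.07 ± 0.33 (edgeR adjusted p = 0.0989). That fit called 2521 of 20752 genes in all, or 12.1%, against 1382 of 20512 with the replicate. *Itga5* passed without control replicate 3 (0.77 ± 0.15, edgeR adjusted p = 0.0495).

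In the small intestine, 7 of the 10 genes were higher after IMQ, the β2 chain with all 4 of its partners and the chains *Itga4* and *Itga5*. Of the 19965 genes tested, 2.95% were called and 2.77% were called higher. *Itgb2* had 1491, 906 and 1294 normalized counts in the controls and 13599 and 13017 after IMQ. Both treated libraries were far above the controls, and the rise was 10.8-fold, or 3.43 ± 0.21 (edgeR adjusted p = 3.79e-04). *Itgax* went from 2040, 1587 and 1570.0 normalized counts to 13520 and 10921, a 7.05-fold rise of 2.82 ± 0.17 (edgeR adjusted p = 3.79e-04). *Itgam* went from 1606, 1487 and 1482 normalized counts to 5528 and 5702. This was a 3.68-fold rise of 1.88 ± 0.11 (edgeR adjusted p = 3.62e-04), again with a wide gap between the groups. *Itgal* had 1048, 790 and 956 normalized counts in the controls and 2144 and 2282 after IMQ. It rose least of the 4 partners, 2.38-fold or 1.25 ± 0.15 (edgeR adjusted p = 0.00503), and was not called without treated replicate 11 (edgeR adjusted p = 0.0542).

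*Itgad*, which encodes the CD11d chain of certain tissue macrophages, had the largest change of the 10 genes. It had 86.8, 57.5 and 64.6 normalized counts in the control small intestines and 2708 and 2055 after IMQ. No other integrin of the set was so low in the controls and so far above them after IMQ. The rise was 34.2-fold, or 5.10 ± 0.23 (edgeR adjusted p = 1.53e-04), which placed *Itgad* at position 9 by p and 12 by fold change among the 19965 genes. *Itgax* and *Itgad* are paralogs, and of the 3997 stretches of 50 bases in the *Itgax* transcript of GENCODE, 384 (9.61%) also occur in *Itgad*. How reads that match both genes were assigned is not given in the sources used here. The *Itgad* count was 20.03% and 18.8% of the *Itgax* count in the treated small intestines, 3.62% to 4.25% in the control small intestines and 2.28% to 8.00% in the skin. Antisense genes that overlap *Itgad* had at most 8 counts in any library, apart from *Cox6a2*, which shares 70 bases with its end and had 32 to 47 counts in the small intestine and 1152 to 2975 in the skin, where *Itgad* had 17 to 67. The part of *Cox6a2* in the *Itgad* counts was not tested.

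The α chains *Itga4* and *Itga5*, which can pair with β1, were also called in the small intestine. *Itga4* had 1662, 1757 and 1843 normalized counts in the controls and 3230 and 3212 after IMQ, without overlap, a rise of 0.88 ± 0.11 (edgeR adjusted p = 0.00682). *Itga5* had 841, 736 and 995 normalized counts in the controls and 1580 and 1488 after IMQ, also apart, a rise of 0.84 ± 0.16 (edgeR adjusted p = 0.0409). Both calls rested on few libraries, since *Itga4* was called in 3 of the 5 fits without 1 library and *Itga5* in 0 of 5. Neither was called by limma on log2(FPKM + 0.01) or on log2(FPKM + 1). The pair that holds lymphocytes in the epithelium was not called. *Itgae* had 1840, 1183 and 1450 normalized counts in the controls and 1295 and 1342 after IMQ. For *Itgb7* the values were 1255, 906 and 881 against 1029 and 1045 normalized counts. The treated values of both lay within the range of the controls, and the log2 fold changes were -0.18 ± 0.19 (edgeR adjusted p = 0.813) and 0.03 ± 0.19 (edgeR adjusted p = 0.977). *Itgb1* had 14420, 15018 and 17091 normalized counts in the controls and 16363 and 13683 after IMQ, with overlap and a log2 fold change of -0.05 ± 0.16 (edgeR adjusted p = 0.957). For 7 of the 10 genes both treated small intestines lay above all controls, against 15.1% of all genes tested. Over the 5 fits without 1 library, the log2 fold change was 3.26 to 3.60 for *Itgb2*, 1.86 to 1.92 for *Itgam* and 2.66 to 2.96 for *Itgax*. It was 4.89 to 5.29 for *Itgad*, 1.14 to 1.35 for *Itgal*, 0.84 to 0.91 for *Itga4* and 0.74 to 0.96 for *Itga5*. These are bulk tissue libraries, in which fewer cells of a type and less mRNA per cell cannot be told apart, and the same holds for more of either.

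**Figure D2:**
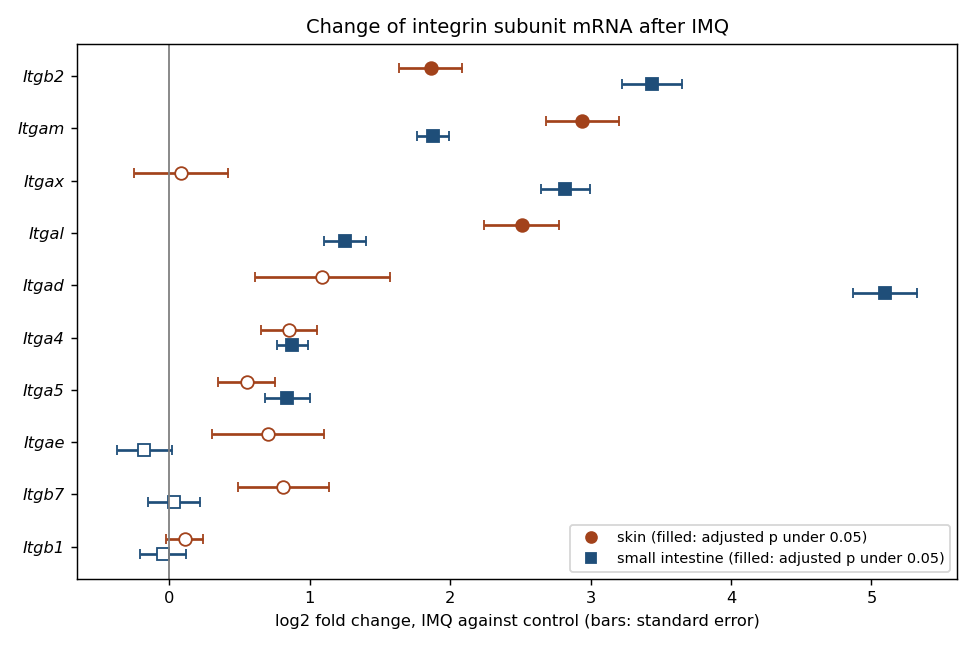
Log2 fold change of each integrin gene after IMQ in skin (circles) and small intestine (squares), with bars for the standard error of edgeR and filled symbols for an adjusted p under 0.05. *Itgam* and *Itgal* have the larger estimate in skin, and *Itgb2*, *Itgax* and *Itgad* have the larger estimate in the small intestine.

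An interaction term in a model of the 11 libraries tested whether skin and small intestine responded differently. Of 18108 genes, 2.55% were called, and 1.7% had the more positive response in the small intestine. *Itgad* (difference of log2 fold changes 4.01 ± 0.56, edgeR adjusted p = 0.00598), *Itgax* (2.75 ± 0.44, edgeR adjusted p = 0.00995) and *Itgb2* (1.58 ± 0.34, edgeR adjusted p = 0.0384) had the more positive response in the small intestine. *Itgal* (-1.25 ± 0.35, edgeR adjusted p = 0.0966) and *Itgam* (-1.05 ± 0.30, edgeR adjusted p = 0.105) had estimates in the opposite direction that did not pass in edgeR and passed in DESeq2 (adjusted p = 0.0192 and 0.0279). The interaction of *Itgad* was called in 11 of 11 fits without 1 library and that of *Itgax* in 10 of 11, the exception being treated replicate 10 of the small intestine (edgeR adjusted p = 0.0523). For *Itgb2* it was called in 3 of 11. Differences for the other 5 genes, *Itga4* (0.04 ± 0.26), *Itga5* (0.29 ± 0.27), *Itgae* (-0.86 ± 0.53), *Itgb7* (-0.77 ± 0.44) and *Itgb1* (-0.15 ± 0.19) were not called. Without control replicate 2 of the skin, 4 genes were called, with *Itgal* added (-1.56 ± 0.27, edgeR adjusted p = 0.00985), in a fit that called 1072 of 18180 genes, or 5.9%, against 462 of 18108.

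The makeup of the β2 partners was described by shares, without a test. Of the summed FPKM of *Itgam*, *Itgax*, *Itgal* and *Itgad*, *Itgam* made up 57.9%, 38.1% and 47.1% in the control skins and 73.8%, 75.3% and 70.3% in the treated skins. *Itgax* made up 27.8%, 43.2% and 33.0% of the sum in the controls and 6.55%, 8.30% and 8.07% after IMQ. The treated skins thus had mostly *Itgam* mRNA, and neither share overlapped between the groups. *Itgax* had the largest share in the control small intestines, at 47.5%, 45.1% and 43.3%, and a larger one in the treated, at 59.7% and 55.5%. *Itgam* had 31.9%, 36.1% and 34.8% in the controls there and 20.8% and 24.7% after IMQ. The share of *Itgad* was 2.01%, 1.64% and 1.77% in control and 12.3% and 10.7% in treated small intestine, and between 0.227% and 1.12% in the 6 skin libraries. *Itgal* took 13.6% to 19.1% in control skin, 16.0% to 21.4% in treated skin, 17.2% to 20.1% in control small intestine and 7.23% and 8.97% in treated small intestine. For each FPKM of *Itgb2* the 4 α chains summed to 1.18 to 1.35 FPKM in control skin, 1.63 to 1.88 FPKM in treated skin, 2.02 to 2.80 FPKM in control small intestine and 1.21 and 1.10 FPKM in treated small intestine.

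**Figure D3:**
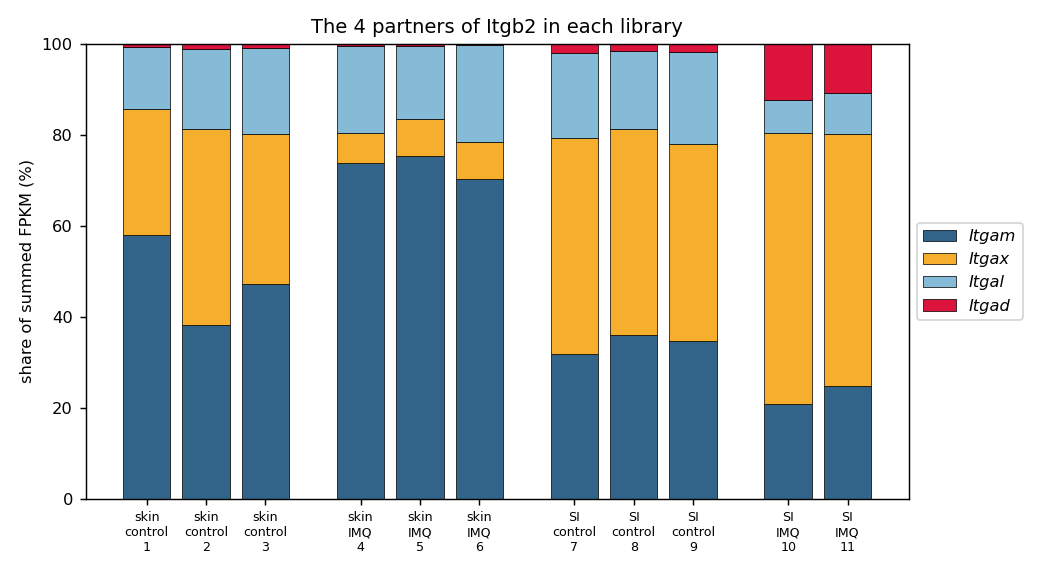
Share of *Itgam*, *Itgax*, *Itgal* and *Itgad* in their summed FPKM, in percent, with 1 stacked bar for each library. *Itgam* takes 70.3% to 75.3% of the treated skins, and *Itgad* reaches 12.3% and 10.7% in the treated small intestines (SI).

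Ratios of 2 subunits within a library do not depend on the scaling between libraries. Of 14 ratios, 8 had groups that did not overlap in skin and 12 in small intestine. Many of them share *Itgb2* or *Itgb1* and are not independent, and the share for ratios of other genes was not computed. Among single genes, all treated skins lay above every control for 15.1% and below for 13.3%. In the small intestine these shares were 15.1% and 13.9%. Each ratio was compared over libraries by a two-sided exact permutation test. The lowest possible value is exact permutation p = 0.1 in the skin and exact permutation p = 0.2 in the small intestine. No ratio can therefore pass 0.05. *Itgam* per *Itgax* was 2.08, 0.882 and 1.43 in control skin and 11.3, 9.07 and 8.71 in treated skin (exact permutation p = 0.1, 0.175 after Benjamini-Hochberg adjustment over the 14). The small intestine had the opposite order, with 0.671, 0.799 and 0.802 in the controls and 0.348 and 0.445 after IMQ (exact permutation p = 0.2, adjusted 0.233). *Itgb2* per *Itgb1*, the leukocyte chain against the general one, was 0.149, 0.185 and 0.0850 in control and 0.476, 0.399 and 0.498 in treated skin, and 0.151, 0.0878 and 0.111 in control and 1.21 and 1.37 in treated small intestine. The groups were apart in both tissues. *Itgae* per *Itgb7*, the chains of one receptor, lay between 0.945 and 1.45 in the skin libraries and between 0.853 and 1.12 in those of the small intestine. *Itgb7* per *Itgb2* was lower after IMQ without overlap in each tissue, at 0.169, 0.276 and 0.333 in treated against 0.490, 0.550 and 0.585 in control skin, and at 0.0827 and 0.0880 in treated against 0.910, 1.08 and 0.739 in control small intestine.

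General leukocyte mRNA was also higher after IMQ. Of 8 pan-leukocyte markers, 7 were called higher in skin and 7 in small intestine, and their median log2 fold changes of 1.25 and 1.72 compare with -0.01 and -0.02 for all genes. *Lcp1*, the leukocyte plastin, rose by 1.22 ± 0.25 in skin (edgeR adjusted p = 0.0359) and 1.60 ± 0.17 in small intestine (edgeR adjusted p = 0.00264), and the lysosomal membrane protein gene *Laptm5* by 1.13 ± 0.17 (edgeR adjusted p = 0.0142) and 2.19 ± 0.18 (edgeR adjusted p = 8.24e-04). Each integrin was therefore also divided by the geometric mean FPKM of the 8 markers in its own library, a scale chosen after the values had been seen. On it *Itgam* per marker was 0.418, 0.266 and 0.263 in control skin and 1.13, 0.974 and 0.758 in treated skin, a log2 difference of 1.61, and *Itgal* differed by 1.15 and *Itgb2* by 0.50. For these 3 genes the treated skins lay above the controls, whereas *Itgax* per marker was lower in every treated skin, at 0.0999, 0.107 and 0.0871 against 0.201, 0.301 and 0.184, a log2 difference of -1.19. The treated skins also lay below every control for *Itgb1* (-1.27), *Itgb7* (-0.61), *Itgae* (-0.60) and *Itga4* (-0.51), whereas *Itga5* (-0.81) and *Itgad* (-0.24) overlapped. In the small intestine *Itgad* per marker was 0.0248, 0.0226 and 0.0181 in the controls and 0.254 and 0.216 after IMQ, a log2 difference of 3.44. *Itgb2* differed there by 1.74 and *Itgax* by 1.11, both without overlap. *Itgam* per marker, 0.394, 0.496 and 0.357 in the controls and 0.429 and 0.498 after IMQ, overlapped, with a difference of 0.17. The remaining 6 genes were lower per marker in both treated small intestines than in every control, by -0.45 for *Itgal*, -0.84 for *Itga4*, -0.86 for *Itga5*, -1.66 for *Itgb7*, -1.76 for *Itgb1* and -1.87 for *Itgae*. With 3 against 3 and 3 against 2 libraries none of these 20 ratios can pass the exact permutation test. The markers as a group rose in both tissues, so a gene with unchanged counts falls on this scale. In the small intestine *Itgb1* (-0.05), *Itgb7* (0.03) and *Itgae* (-0.18) were not called in counts, and *Itgal*, *Itga4* and *Itga5* rose. None of the genes lower per marker was called lower in counts in that tissue. The share of all genes lower per marker was not computed.

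**Figure D4:**
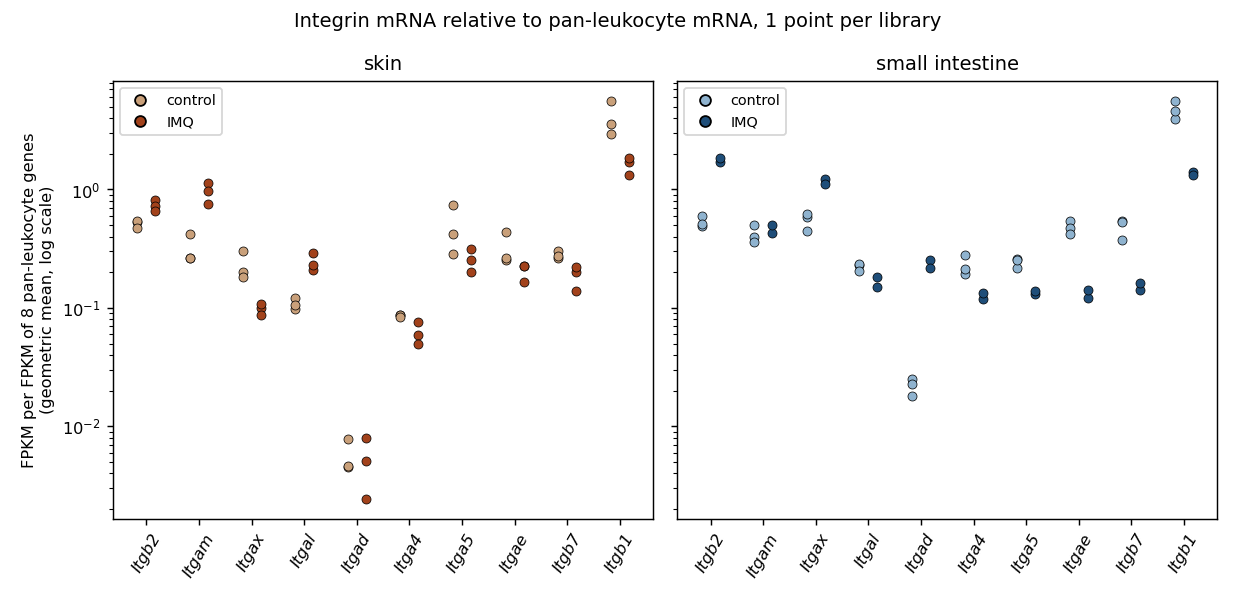
FPKM of each integrin gene divided by the geometric mean FPKM of 8 pan-leukocyte genes of the same library, on a log axis, with 1 point per library. In skin *Itgam*, *Itgal* and *Itgb2* lie above their controls and *Itgax*, *Itga4*, *Itgae*, *Itgb7* and *Itgb1* below, and in the small intestine *Itgb2*, *Itgax* and *Itgad* lie above and *Itgal*, *Itga4*, *Itga5*, *Itgae*, *Itgb7* and *Itgb1* below. The pan-leukocyte genes rose after IMQ, so a gene with unchanged counts falls on this scale.

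Markers of single leukocyte types that carry these integrins were examined in both tissues. In the tissue by treatment test, edgeR called 2 of 5 neutrophil markers with the lower response in the small intestine, *S100a9* (-7.22 ± 0.70, edgeR adjusted p = 9.13e-04) and *Retnlg* (-2.07 ± 0.47, edgeR adjusted p = 0.0457), and 1 of 8 mast cell markers, *Hdc* (-2.27 ± 0.51, edgeR adjusted p = 0.0447). The response was higher there for 2 of 10 monocyte and macrophage markers, *Cd68* (1.97 ± 0.29, edgeR adjusted p = 0.00667) and *Mertk* (0.93 ± 0.17, edgeR adjusted p = 0.0184). Only these 2 of the 10 had a positive estimate, the median of the list was -0.19, and 4 had an unadjusted p under 0.05. Of the dendritic cell markers edgeR called 0 of 8 in that test, with 2 at an unadjusted p under 0.05 and 2 called by DESeq2, and of the T cell markers 0 of 9, with 5 and 4. All 6 neutrophil markers tested in the skin were called higher, and the 8 markers of the list summed to 13.6 to 14.7 FPKM in control and 7037 to 8588 FPKM in treated skin. Most of this was *S100a9* (9.46 ± 0.26, edgeR adjusted p = 7.6e-05) and *S100a8* (10.2 ± 0.48, edgeR adjusted p = 5.39e-04), which keratinocytes also make under inflammation. Of 5 tested in the small intestine edgeR called 2 and DESeq2 called 1, with sums of 7.17 to 8.13 FPKM in control and 14.9 and 15.5 FPKM in treated libraries. The granulocyte receptor gene *Csf3r* rose by 3.21 ± 0.23 (edgeR adjusted p = 4.86e-04). The other edgeR call, *Mmp8*, had few counts, 3.69 to 4.34 normalized in the controls and 12.7 and 16.6 after IMQ (1.83 ± 0.35, edgeR adjusted p = 0.0425). *Retnlg* had a log2 fold change of -0.07 ± 0.21 (edgeR adjusted p = 0.943). Of 10 monocyte and macrophage markers, 3 were called higher in each tissue, with sums of 150.4 to 183 FPKM against 277 to 317 FPKM in skin and 83.8 to 115 FPKM against 160.4 and 167 FPKM in small intestine. The called genes were *Adgre1*, which encodes the macrophage marker F4/80 (2.88 ± 0.32, edgeR adjusted p = 0.00624 in skin, and 2.16 ± 0.22, edgeR adjusted p = 0.00231 in small intestine), the Fc receptor gene *Fcgr1* (1.65 ± 0.23, edgeR adjusted p = 0.0114, and 1.46 ± 0.27, edgeR adjusted p = 0.0348), *Cd14* in skin (2.14 ± 0.20, edgeR adjusted p = 0.00406) and *Cd68* in small intestine (2.54 ± 0.20, edgeR adjusted p = 7.94e-04). The most abundant, *Csf1r*, had log2 fold changes of 0.40 ± 0.22 (edgeR adjusted p = 0.333) and 0.38 ± 0.23 (edgeR adjusted p = 0.605). Dendritic cell markers were called in 1 of 9 in the skin and 2 of 8 in the small intestine, where *Batf3* rose by 3.07 ± 0.28 (edgeR adjusted p = 0.00151) and *Xcr1* by 1.15 ± 0.23 (edgeR adjusted p = 0.0457). Of those 8, 5 had a positive estimate, in a range from -1.39 for *Siglech*, which did not pass and was chosen after its value was seen, to 3.07, with 4 at an unadjusted p under 0.05. The 9 T cell markers gave 0 calls by edgeR in either tissue, with 4 at an unadjusted p under 0.05 and 4 called by DESeq2 in skin and 2 and 0 in small intestine. Their sums were 13.6 to 26.5 FPKM in control skin, 22.7 to 61.9 FPKM in treated skin, 23.2 to 33.9 FPKM in control small intestine and 21.4 and 22.3 FPKM in treated small intestine. Of 7 markers of intraepithelial and cytotoxic lymphocytes, among which *Gzma* was the most abundant in the small intestine, edgeR called 0 in skin, where 2 had an unadjusted p under 0.05 and DESeq2 called 1, and 1 in small intestine. The gene called there was *Cd244a*, which rose by 1.72 ± 0.22 (edgeR adjusted p = 0.00652). It alone of the 7 had a positive estimate in the small intestine, and the median of the list was -0.33. Eosinophil markers gave 0 edgeR calls of 3 tested in skin, with 1 at an unadjusted p under 0.05 and 1 by DESeq2, and 0 of 5 in small intestine, where both other counts were 0. Mast cell markers gave 5 of 8 in skin and 0 of 8 in small intestine by edgeR, with 0 by DESeq2 and 0 at an unadjusted p under 0.05 in the latter. Without control replicate 2 of the skin, a count added after the data were seen, edgeR called 6 of 6 neutrophil, 4 of 10 monocyte and macrophage, 1 of 9 dendritic cell, 0 of 9 T cell, 1 of 7 intraepithelial and cytotoxic lymphocyte, 0 of 3 eosinophil and 6 of 8 mast cell markers in the skin, all higher. No marker of these lists was at 0 in all libraries, and the part of any of these cell types in the integrin values was not tested.

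Genes that act with integrins were described by lists. Of 16 genes of integrin activation, which link the cytoplasmic tails to actin and to the GTPase Rap1, 5 were called in skin and 6 in small intestine, all higher, with medians of 0.48 and 0.60. The adapter gene *Fyb* rose most, from 904 to 1409 normalized counts in the controls to 5819 to 7368 in treated skin (2.54 ± 0.20, edgeR adjusted p = 0.00238). Its values in the small intestine were 918 to 1265 and 5269 to 6227 normalized counts (2.40 ± 0.17, edgeR adjusted p = 4.35e-04). *Fermt3*, which encodes the leukocyte kindlin, rose by 1.35 ± 0.17 in skin (edgeR adjusted p = 0.00996) and 2.05 ± 0.19 in small intestine (edgeR adjusted p = 0.00148). *Apbb1ip*, the Rap1 effector that recruits talin, rose by 0.98 ± 0.17 (edgeR adjusted p = 0.023) and 2.26 ± 0.20 (edgeR adjusted p = 0.00137). *Rap1b* itself was called in skin (0.76 ± 0.13, edgeR adjusted p = 0.0205) and small intestine (0.81 ± 0.13, edgeR adjusted p = 0.0203). *Tln1*, which encodes talin, was called in small intestine (1.22 ± 0.15, edgeR adjusted p = 0.00581) and not in skin (0.21 ± 0.12, edgeR adjusted p = 0.347), and the tissue by treatment test called that difference (1.02 ± 0.18, edgeR adjusted p = 0.0143). Without control replicate 2, 7 of the 16 genes were called higher and 1 lower in the skin.

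Signaling downstream of bound integrins gave calls for 9 of 19 genes in skin and 10 of 19 in small intestine, all higher, with medians of 0.65 and 1.03. In the skin the smallest p values were those of the adapter chains *Fcer1g* (1.96 ± 0.16, edgeR adjusted p = 0.00262) and *Tyrobp* (1.53 ± 0.15, edgeR adjusted p = 0.00432) and of the Src family kinases *Lyn* (1.80 ± 0.16, edgeR adjusted p = 0.00354) and *Fgr* (1.90 ± 0.23, edgeR adjusted p = 0.00747). The small intestine had *Fgr* (3.47 ± 0.16, edgeR adjusted p = 1.53e-04), the adapter *Lcp2* (2.87 ± 0.15, edgeR adjusted p = 2.2e-04), the kinase *Syk* (2.48 ± 0.14, edgeR adjusted p = 2.7e-04) and the exchange factor *Vav1* (2.13 ± 0.13, edgeR adjusted p = 3.45e-04). By contrast, of the 16 integrin subunits outside the leukocyte set 0 were called by edgeR in the skin, with 3 at an unadjusted p under 0.05 and 1 called by DESeq2, and edgeR called 1 in the small intestine. This was *Itga9*, which went from 1389 to 1527 normalized counts to 2622 and 3471 (1.07 ± 0.15, edgeR adjusted p = 0.0096).

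Ligand genes gave 2 calls in skin and 3 in small intestine. Of 12 ligand genes tested in the skin, *Vcam1*, the endothelial ligand of α4β1, rose from 358 to 421 normalized counts to 595 to 1187 (1.19 ± 0.26, edgeR adjusted p = 0.0426), and *Fn1*, which encodes fibronectin, fell from 16939.5 to 24576 normalized counts to 10136 to 10655 (-0.97 ± 0.16, edgeR adjusted p = 0.0207). Of 14 tested in the small intestine, *Icam1*, a ligand of the β2 integrins, rose from 476 to 554 normalized counts to 1483 and 1851 (1.69 ± 0.16, edgeR adjusted p = 0.00157). *Madcam1*, the ligand of α4β7, went from 145 to 241 normalized counts to 454 and 459 (1.30 ± 0.26, edgeR adjusted p = 0.0465), and *Icam5* from 6.51 to 10.2 to 38.8 and 50.8 (2.42 ± 0.35, edgeR adjusted p = 0.0121). Of 8 regulators of leukocyte integrin genes, *Spi1* was called in skin (1.25 ± 0.16, edgeR adjusted p = 0.00961). The small intestine had *Spi1* (2.43 ± 0.23, edgeR adjusted p = 0.00176), *Tgfb1* (1.65 ± 0.20, edgeR adjusted p = 0.0048) and *Runx1* (1.54 ± 0.23, edgeR adjusted p = 0.0142) higher and *Myb* lower (-0.63 ± 0.12, edgeR adjusted p = 0.0391). In the skin *Myb* had the largest estimate of the list, -1.37 ± 0.40, which did not pass (edgeR adjusted p = 0.0936). Without control replicate 2 the skin had 9 signaling genes called higher and 1 lower, 1 other integrin subunit higher, 2 ligand genes higher and 1 lower, and 1 regulator higher and 1 lower.

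Over the 11 libraries, the 5 genes with the pattern most like that of *Itgb2* among 15050 genes were *Fgr*, *Pld4*, *Batf*, *Lcp2* and *Cd300c2*, by the root mean square distance of centered log2 normalized counts. *Fgr* lay at a distance of 0.126 with Pearson's r of 0.996, which describes libraries that share their treatment and tissue. For *Itgae* the nearest were *Sla2* (0.170), its own partner *Itgb7* (0.213), *Acap1* (0.245), *Nlrc3* (0.246) and *Gm7609* (0.248). Thus the mRNAs of the αE and β7 chains lay close to each other across the libraries, with r of 0.908. Neither passed the test for IMQ in either tissue with all libraries. Without control replicate 2 of the skin, *Itgae* passed there (edgeR adjusted p = 0.0447) and *Itgb7* did not (edgeR adjusted p = 0.0989).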

How the data were processed

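The authors removed adapters, aligned the reads of both tissues to mm10 with HISAT2 2.1.0 and quantified genes with StringTie 2.1.3b, versions as in the submitters' processing notes. The authors deposited whole-number read counts without normalization. The FPKM of the same table were computed by the authors per transcript length and library size, and the deposited TPM were not used. Handling of strand and of reads that match several genes is not given in the sources used here. Of the *Itgam* transcript, 72.4% of stretches of 50 bases also occur in *Gm49368*, an annotated model at the same locus, which was not analysed here.

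A gene entered a comparison if each of its libraries had 1 count or more (20512 genes in skin, 19965 in small intestine and 18108 over the 11 libraries). After relative log expression normalization, edgeR 4.0.16 in R 4.3.3 was run as a quasi-likelihood test, and a Benjamini-Hochberg adjusted p under 0.05 was the threshold for a call. Standard errors were derived from the F statistic. The code was tested on simulated data. Replicates differed by more than sampling noise, with a chi-square per degree of freedom of 36.9 to 251 over 10 pairs. The alternatives were TMM, DESeq2 1.42.0, no filter, filterByExpr, limma 3.58.1 on log2(FPKM + 0.01) and log2(FPKM + 1), a fit of all libraries, and omission of single libraries.

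The RefSeq promoter table used here was matched for 6 of the 10 genes, and shared sequence was read from GENCODE transcripts. The integrin genes, the lists and the markers were chosen with earlier results of these data known. Named are the 10 genes, called genes of the other integrin subunits, for each list up to 4 called genes with the smallest p and the gene with the largest change, up to 2 most abundant genes of a marker list, and the 5 genes nearest to *Itgb2* and to *Itgae*. Genes of the marker lists that passed but fall outside this rule were named after their values were seen.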

Additional observations from a re-analysis of the deposited data

Results flagged for a closer look

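The response to IMQ of 3 integrin genes differed between small intestine and skin when the difference itself was tested in one edgeR model of the 11 libraries. The difference of the log2 fold changes, small intestine minus skin, was 4.01 for *Itgad*, 2.75 for *Itgax* and 1.58 for *Itgb2*. All 3 had the larger rise in the small intestine. For *Itgad* and *Itgax* the 2 treated small intestines were far above their controls, and *Itgb2* was called higher in both tissues. The skin groups of *Itgad* and *Itgax* overlapped through control replicate 2 alone, the library with intestinal markers. The other control skins lay below every treated skin for both genes, and neither was called in skin without that replicate. The difference for *Itgb2* was the least stable, with an edgeR adjusted p of 0.0384 that ranged from 0.011 to 0.127 when 1 library was left out. Reads shared between *Itgax* and *Itgad* cannot be separated here, and what lies behind the differences was not tested.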

How the results depend on the processing

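Under other models and filters, 237 of 260 fold changes of the 10 genes kept their direction and their side of the threshold, 12 lost and 4 gained the call and 7 reversed, the 7 all between the control tissues. These were *Itgb2* with TMM (-0.038), and with limma on log2(FPKM + 0.01) and log2(FPKM + 1) *Itgb2* (-0.40 and -0.36), *Itgam* (-0.021 and -0.025) and *Itgb1* (-0.18 and -0.17). The cause was not tested. DESeq2 called 3030 genes in skin, 1206 in small intestine and 1281 for tissue by treatment, 5 of them integrins. Limma on log2(FPKM + 1) called 894 genes in skin. Between the control tissues it called 3 integrins, in a fit that called 63.2% of all genes. For tissue by treatment, 301 genes were called without a filter.

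With 1 library left out, the calls ranged from 258 (without IMQ replicate 5) to 2521 (without control replicate 2) genes and from 3 to 5 integrins in skin, from 294 (without IMQ replicate 10) to 801 (without control replicate 7) genes and from 4 to 6 integrins in small intestine, and from 144 to 1072 genes and from 1 (without IMQ replicate 10 of the small intestine) to 4 integrins for tissue by treatment. Between the control tissues 5 to 7 integrins were called, in fits that called 50.9% to 57.3% of all genes. The fold change ranges that crossed 0 were those of *Itgax* in skin (-0.19 to 0.56), *Itgae* (-0.32 to 0.0066), *Itgb7* (-0.062 to 0.22) and *Itgb1* (-0.17 to 0.076) in small intestine, *Itga4* for tissue by treatment (-0.18 to 0.23) and *Itgb2* between the control tissues (-0.19 to 0.28), and none of the 6 was called. Some of these fits had 1 treated small intestine, which was assumed to vary like the controls. With 2 treated small intestines, small changes there could be missed, and *Itgad* in skin was limited by its 17 to 67 counts. No paired analysis was possible because the replicate numbers, 1 to 11, are not shared between groups.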

Other observations

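The vessel wall, to which leukocyte integrins attach, was followed with 5 endothelial markers, of which edgeR called 2 higher in skin and 1 in small intestine. *Pecam1*, which is made by endothelium and by leukocytes, was 2505 to 3451 normalized counts in control and 6038 to 7163 in treated skin (log2 fold change 1.16 ± 0.15, edgeR adjusted p = 0.00996). It was 1725 to 2162 and 6469 and 7112 normalized counts in control and treated small intestine (1.84 ± 0.14, edgeR adjusted p = 6.68e-04). Of 3 B cell markers tested in the skin, edgeR called the kinase gene *Blk* (5.10 ± 0.49, edgeR adjusted p = 0.0042) and *Cd79b* (3.42 ± 0.43, edgeR adjusted p = 0.00849). The B cell markers of the small intestine gave 0 calls of 7 by edgeR, with 1 at an unadjusted p under 0.05 and 1 called by DESeq2. Fibroblast markers gave 0 of 5 in either tissue by edgeR and by DESeq2, with 0 in skin and 1 in small intestine at an unadjusted p under 0.05.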
